A study of Rattus norvegicus with 12 samples.

Results

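The metalloproteinases and their inhibitors were 67 genes of the 26612 on the array, measured by 77 of its 30367 probes. They were chosen by name, with earlier results of these data known. The rule took every non-control probe whose gene name in the scanner files begins with Mmp, Timp, Adam or Adamts directly followed by a digit. The 67 were 22 matrix metalloproteinase (Mmp) genes, 4 tissue inhibitor of metalloproteinase (Timp) genes, 26 Adam genes and 15 Adamts genes. RNA came from the cervix of 12 adult female Sprague Dawley rats, each hybridised to its own array, in 4 groups of 3. NP rats were not pregnant and were taken in proestrus, and D21 rats were taken on day 21 after breeding, the day before expected birth. In all 4 groups the rats were perfused with saline and the trimmed cervix was dispersed into single cells with collagenase B and DNAase. Cells of the whole cervix groups were frozen directly, while cells of the macrophage (Mφ)-depleted groups were first incubated with the ED1 antibody and drawn past a magnet with coated beads. Whole and depleted samples came from different rats, and only the depleted cells went through the antibody and bead steps, so that loss of Mφs and this added handling cannot be told apart.

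Matrix metalloproteinases are zinc proteases, secreted or held at the membrane, that cut collagens, elastin, fibronectin and proteoglycans, and most are made as inactive proforms. Timp proteins bind the active enzymes and block them. Adam proteins sit in the cell membrane, where several release the outer parts of growth factors, cytokines and adhesion molecules, and many others belong to the male germ line. Adamts proteins are secreted and trim procollagens or cut the large proteoglycans of the matrix. In the cervix the matrix that these enzymes act on loosens before birth, and fibroblasts, smooth muscle, epithelium and leukocytes can all make some of them.

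Levels are log2 values of the scanner's processed intensity over the 75th percentile of its array, so that 0 is that percentile, which lay between 290 and 1171 intensity units. Levels of different genes come from different probes and are not set against each other. The scanner software rated 44.9% to 61.7% of the probes on an array as well above background. The 15 Mφ markers had a summed log2 level of 6.45 to 7.29 in NP whole and 6.59 to 6.81 in D21 whole cervix, against 2.37 to 3.98 in NP and 3.53 to 4.07 in D21 depleted cells. Adgre1 and Mrc1 were not well above background on any depleted array, and Cd163, Cybb and Ms4a7 were not on any NP depleted array. The 10 fibroblast markers moved with depletion as well, from 6.50 to 6.72 in NP whole and 6.58 to 6.85 in D21 whole cervix to 2.24 to 2.62 in NP and 4.74 to 5.44 in D21 depleted cells. The 10 smooth muscle markers ran from 8.77 to 9.42 in NP whole and 8.19 to 8.64 in D21 whole cervix against 4.42 to 4.84 in NP and 5.48 to 7.32 in D21 depleted cells. The 15 immediate-early genes on the array, Fos and Jun among them, had a summed level of 3.89 to 4.33 in NP whole and 4.93 to 5.01 in D21 whole cervix against 6.13 to 6.94 in NP and 7.14 to 7.27 in D21 depleted cells. In these mixed cells, fewer cells of a type and less RNA per cell cannot be told apart. The arrays came from 4 slides and were scanned over 3 days, with all whole arrays on day 3, and D21 depleted rat 4, scanned on day 3, stood apart from D21 depleted rats 1 and 2 in several of the genes below.

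Of the 67 genes, 21 were well above background on all 12 arrays, 24 on some arrays and 22 on none. The 21 were 6 of the Mmp genes, 3 of the Timp genes, 5 of the Adam genes and 7 of the Adamts genes. The collagenases, which cut fibrillar collagen, were hardly detected: Mmp1a, Mmp1b and Mmp8 were not well above background on any array, and Mmp13 was on 1 NP depleted array only. Mmp9, the gelatinase of neutrophils and Mφs, passed background on none of the 12 arrays, at -5.01, -5.50 and -6.05 in NP whole, -5.90, -6.32 and -6.01 in D21 whole, -7.04, -7.18 and -4.99 in NP depleted and -7.44, -6.93 and -5.69 in D21 depleted cervix. The same was true of the stromelysin Mmp10 and of Mmp20, Mmp27, Adamts12, Adamts16, Adamts18 and Adamts19. Among the 15 Adam genes of the germ line, 9 were on no array, 5 on 1 to 5 arrays, and only Adam4 was well above background on all 3 arrays of a group. Of the 3 Adam genes without protease activity outside that germ line group, Adam11 and Adam22 were on no array and Adam23 on 1. The share on no array was 32.8% of these genes and 27.7% of all 26612 genes, and the share on all 12 arrays was 31.3% against 41.0%.

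On chromosome 8, 10 of the Mmp genes lie next to each other, with probes inside 365 kb in the rn4 build, and they differed widely in detection. Mmp7 was well above background on all 12 arrays, Mmp12 on 7, Mmp3 on 4 and Mmp13 on 1, while the 6 genes between or beside them, Mmp1b, Mmp1a, Mmp10, Mmp8, Mmp27 and Mmp20, were on none. Promoters of several of these genes are known for a site of AP-1, the pair of Fos and Jun proteins, shortly before the start. RefSeq promoter windows (GRCr8, 250 bases before to 50 after the start) could be matched to 43 of the 67 genes. The letters TGAGTCA or their reverse complement TGACTCA, which together cover both strands, stood in 8 of the 43 windows (18.6%) and in 4.63% of all 33469. Of the 8, 6 were in this neighbourhood, with the first letter 61 to 87 bases before the start, and the others were Adam19 and Adam24. Mmp1b, Mmp8, Mmp27 and Mmp20 lacked it. The 6 stretches are shown because the same 7 letters, on one strand or the other, stand before genes that these arrays detected everywhere and genes they did not detect at all. Each runs from 110 to 21 bases before the start, on the plus strand, with the match in capitals.
Mmp13 (chr8:12782719-12782808): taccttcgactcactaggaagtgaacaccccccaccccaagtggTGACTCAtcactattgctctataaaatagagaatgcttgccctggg
Mmp12 (chr8:12866542-12866631): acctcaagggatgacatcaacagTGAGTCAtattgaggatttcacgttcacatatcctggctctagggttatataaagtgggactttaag
Mmp3 (chr8:12925171-12925260): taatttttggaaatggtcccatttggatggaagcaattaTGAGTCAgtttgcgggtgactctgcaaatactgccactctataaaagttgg
Mmp1, named Mmp1a on the array (chr8:12943343-12943432): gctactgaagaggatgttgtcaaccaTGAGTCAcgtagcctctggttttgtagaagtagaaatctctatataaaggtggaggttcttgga
Mmp10 (chr8:12974597-12974686): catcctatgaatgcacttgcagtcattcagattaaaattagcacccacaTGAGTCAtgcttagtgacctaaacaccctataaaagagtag
Mmp7 (chr8:13132933-13133022): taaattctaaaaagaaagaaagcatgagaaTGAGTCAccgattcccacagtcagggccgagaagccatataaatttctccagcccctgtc
A match of letters is a description and was not tested against binding.

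**Figure D1:**
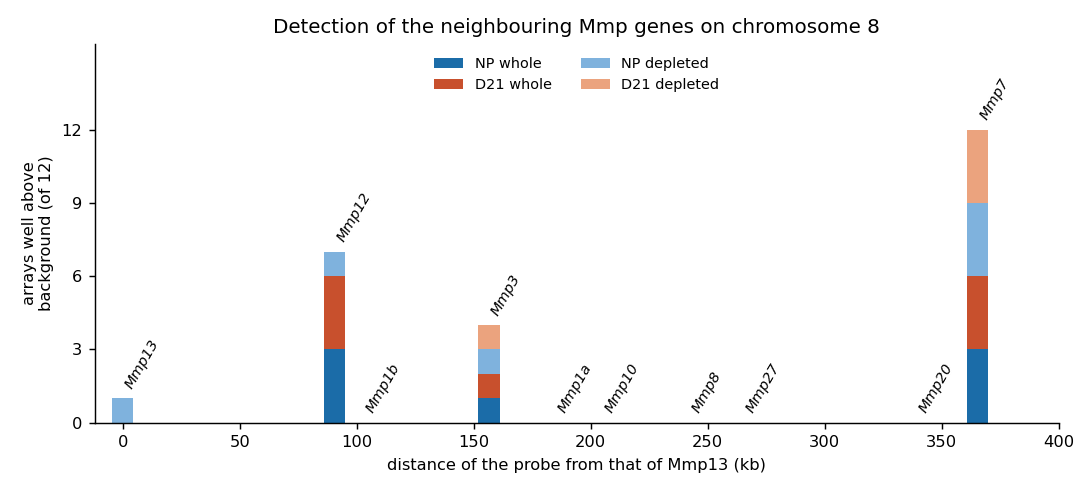
Number of arrays (of 12) on which each of the 10 neighbouring Mmp genes of chromosome 8 was well above background, stacked by group, against the distance of its probe from that of Mmp13 in kb (rn4). Mmp7 stands at 12, Mmp12 at 7 with 6 of them whole arrays, Mmp3 at 4, Mmp13 at 1, and the other 6 genes at 0.

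Tests were kept to genes that the scanner rated well above background in every rat of 1 or both groups of a comparison. A gene was called at an unadjusted limma p below 0.01 if it also changed 2-fold or more, the limits the study's methods set. Adjusted p-values are Benjamini-Hochberg values over all genes tested in a comparison, and 32 of the 67 genes were tested in at least 1. Between NP whole and NP depleted cervix, 14 of 29 tested genes were higher in whole cervix, against a background of 13.6% of all genes tested, and 2 were lower, against 10.8%. The median log2 fold change was 1.38 over the 29 and -0.04 over all genes. Beside these genes, 9 of 10 fibroblast and 10 of 10 smooth muscle markers were higher in NP whole cervix, and their part in the result was not tested. Between D21 whole and D21 depleted cervix, 6 of 31 were higher in whole cervix (background 10.0%) and 1 was lower (background 7.72%), with a median of 0.69 against -0.06, beside 5 of 10 fibroblast and 7 of 10 smooth muscle markers. Between D21 and NP whole cervix, 4 of 31 were higher in D21 (background 5.39%) and 3 were lower (background 3.09%), with a median of 0.39 against -0.08. Between D21 and NP depleted cells, 14 of 29 were higher in D21 (background 5.44%) and none was lower (background 2.06%), with a median of 0.79 against 0.02. At an adjusted p below 0.05, with no limit on the fold, limma counted 14 higher and 2 lower in NP whole against depleted cervix (backgrounds 17.0% and 15.8%) and 6 and 1 in D21 whole against depleted cervix (11.9% and 10.5%). It counted 3 higher and 1 lower in D21 against NP whole cervix (3.94% and 1.94%), and 8 higher in D21 against NP depleted cells (3.62%) with none lower (0.970%). In every comparison the genes that were tested had passed a filter through at least 1 group, so that the medians are over those genes and not over all 67.

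Some of these counts rested on single rats. Without D21 depleted rat 4, the comparison of D21 whole with D21 depleted cervix gave 10 higher and 3 lower, and D21 depleted cells had 4 genes below NP depleted cells. Without NP depleted rat 6 the 14 genes higher in D21 than in NP depleted cells became 8, and without D21 depleted rat 2 they became 9, while without NP depleted rat 7 there were 2 genes lower. The 3 genes lower in D21 than in NP whole cervix became 1 without NP whole rat 8, D21 whole rat 6 or D21 whole rat 7. All 16 calls between NP whole and NP depleted cervix were kept in each of the 12 fits that left out 1 rat, as were 6 of 7 in D21 whole against depleted, 4 of 7 in D21 against NP whole, and 8 of 14 in D21 against NP depleted.

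**Figure D2:**
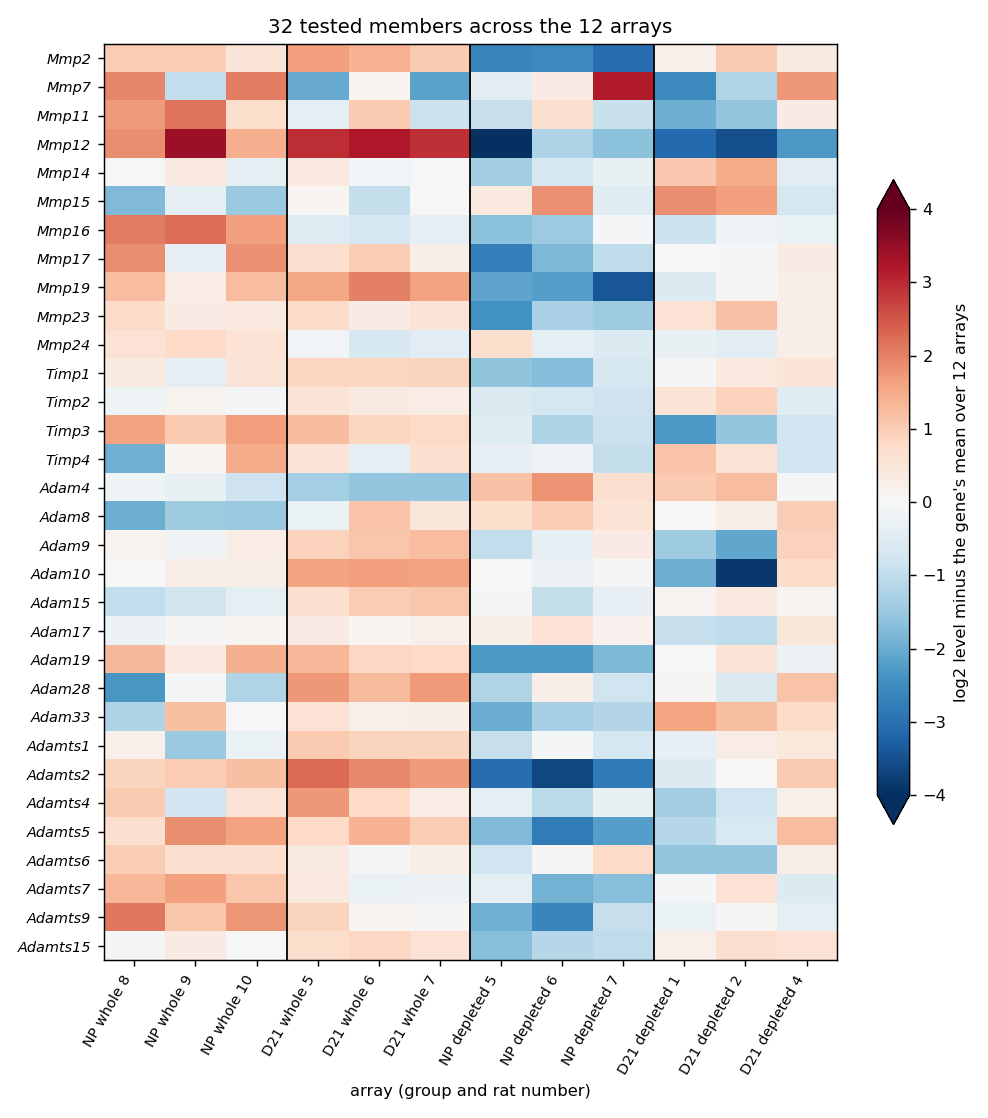
Level of the 32 tested genes (rows) on the 12 arrays (columns, group and rat number), as the log2 level minus the mean of that gene over the 12 arrays, from blue for -4 to red for 4. The NP depleted columns are the bluest for Mmp2, Mmp19, Mmp23, Adam19, Adamts2 and Adamts5, Mmp12 is blue on all depleted arrays, and Mmp16 is red on the NP whole arrays only.

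Mmp2, gelatinase A, cuts denatured collagen and basement membrane collagen and is activated at the cell surface by Mmp14 together with Timp2. In whole cervix Mmp2 stood at 4.96, 4.93 and 4.44 in NP rats and at 5.58, 5.32 and 5.00 in D21 rats. After depletion it stood at 1.31, 1.41 and 0.90 in NP rats and at 4.14, 4.98 and 4.31 in D21 rats. The 3 NP depleted rats thus lay below the other 9, of which the lowest was at 4.14. The log2 difference of NP whole minus NP depleted was 3.57 ± 0.28 (SE, adjusted p = 7.01e-06), 11.9-fold, and that of D21 minus NP depleted was 3.27 ± 0.28 (SE, adjusted p = 0.000221), 9.64-fold. Whole and depleted D21 cervix did not overlap for Mmp2, but the difference of 0.83 ± 0.29 (SE, adjusted p = 0.059) did not pass the limits, nor did that of D21 minus NP whole cervix, 0.52 ± 0.29 (SE, adjusted p = 0.306). A second Mmp2 probe gave a log2 difference of 4.46 for NP whole minus depleted, 2.95 for D21 minus NP depleted and 2.12 for D21 whole minus depleted. The last of these passed the limits (adjusted p = 0.00151), so that for Mmp2 the call and the size of the D21 difference with depletion depended on the probe.

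Mmp14, membrane-type 1 metalloproteinase, was at 3.21, 3.59 and 2.83 in NP whole and 3.59, 3.08 and 3.19 in D21 whole cervix. In depleted cells it was at 1.82, 2.54 and 2.90 in NP rats and 4.28, 4.70 and 2.75 in D21 rats. Rats 1 and 2 of the D21 depleted group were above every other array, and rat 4 lay inside the NP depleted range. The D21 minus NP difference in depleted cells, 1.49 ± 0.46 (SE, adjusted p = 0.101), passed the unadjusted limits with overlapping groups, and the call was lost in 8 of the 12 fits that left out 1 rat. Within slide 3, which held D21 depleted rat 4 and NP depleted rat 7, the difference was -0.15.

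Mmp16, another membrane-type metalloproteinase, was seen in 1 group only. In NP whole cervix it stood at -2.81, -2.66 and -3.25, well above background on all 3 arrays. It was not well above background on any other array, with -5.42, -5.55 and -5.24 in D21 whole, -6.53, -6.33 and -4.95 in NP depleted and -5.74, -5.04 and -5.17 in D21 depleted cervix. Mmp16 was at least 2.55-fold higher in NP than in D21 whole cervix (adjusted p = 0.00686) and at least 2.85-fold higher in NP whole than in NP depleted cervix (adjusted p = 0.000153). These bounds set the mean of the brighter group against the dimmest signals rated well above background on the arrays of the other. The adjusted p-values beside them are limma's for the levels as measured and do not test the bounds. Mmp16 entered both tests through NP whole cervix only. The p-values beside the bounds of Mmp12 and Adam4 below are of the same kind. With normexp background both Mmp16 calls were lost.

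Of the other membrane-type genes, Mmp17, which is anchored by a lipid, stood at 2.25, 0.07 and 2.23 in NP whole and 1.05, 1.38 and 0.65 in D21 whole cervix. Its depleted values were -2.33, -1.39 and -0.62 in NP and 0.37, 0.33 and 0.73 in D21 rats. NP whole exceeded NP depleted cervix by 2.96 ± 0.57 (SE, adjusted p = 0.00234), and by 3.69 without NP whole rat 9, the lowest NP whole array. In depleted cells D21 exceeded NP by 1.92 ± 0.57 (SE, adjusted p = 0.0849), a difference that lost its call without any 1 of the 3 D21 depleted rats or of NP depleted rats 5 and 6. A second Mmp17 probe gave 2.76 and 1.08 for the same differences (limma adjusted p = 0.00609 and 0.331). For D21 whole minus depleted it gave 1.95 (adjusted p = 0.0442) in place of 0.55 (adjusted p = 0.496). The size of this D21 difference of Mmp17, and whether its adjusted p lay below 0.05, thus depended on the probe. Mmp15 and Mmp24 passed the limits in none of the 4 comparisons, and Mmp25 was well above background on 4 arrays and not tested.

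Mmp12, macrophage elastase, is made by Mφs and cuts elastin. Its levels were -1.68, -0.15 and -2.11 in NP whole and -0.62, -0.34 and -0.64 in D21 whole cervix, well above background on all 6 arrays. In depleted cells it stood at -7.57, -4.79 and -5.19 in NP rats, of which 1 array was well above background, and at -6.67, -7.07 and -5.87 in D21 rats, of which none was. Every depleted array was thus below every whole array. Mmp12 was at least 17.8-fold higher in D21 whole than in D21 depleted cervix (adjusted p = 0.000345), and NP whole exceeded NP depleted cervix by 4.54 ± 0.69 (SE, adjusted p = 0.000487), or between 3.68 and 5.07 without 1 rat. With normexp background the D21 call of Mmp12 was lost and the NP call kept. D21 and NP whole cervix overlapped, with a difference of 0.78 ± 0.69 (SE, adjusted p = 0.53). The Mφ markers given above moved with Mmp12, with 12 of 14 tested higher in NP whole and 13 of 15 in D21 whole cervix, and their part in the result was not tested.

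Mmp19, which cuts basement membrane proteins, was at -0.55, -1.49 and -0.55 in NP whole and -0.24, 0.23 and -0.17 in D21 whole cervix. Depleted cells had -3.91, -4.00 and -5.21 in NP rats, with 2 arrays well above background, and -2.33, -1.73 and -1.54 in D21 rats. None of these groups overlapped. Whole exceeded depleted cervix by 3.51 ± 0.39 (SE, adjusted p = 6.59e-05) in NP rats and by 1.81 ± 0.39 (SE, adjusted p = 0.0108) in D21 rats, and D21 exceeded NP depleted cells by 2.50 ± 0.39 (SE, adjusted p = 0.00426). D21 minus NP whole cervix, 0.80 ± 0.39 (SE, adjusted p = 0.253), did not pass the limits.

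Mmp23, a metalloproteinase of the cell surface found in reproductive tissues, stood at 3.06, 2.63 and 2.71 in NP whole, 3.09, 2.65 and 2.83 in D21 whole and 2.89, 3.50 and 2.58 in D21 depleted cervix. NP depleted cells stood apart at -0.09, 1.02 and 0.89. NP whole exceeded NP depleted cervix by 2.20 ± 0.33 (SE, adjusted p = 0.000505), and D21 exceeded NP depleted cells by 2.38 ± 0.33 (SE, adjusted p = 0.00245). The stromelysin Mmp11 and the matrilysin Mmp7, an epithelial enzyme, passed the limits nowhere, and Mmp7 ran from -0.11 to 5.61 over the 12 arrays, with all 4 groups overlapping.

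The probes below are shown because the Mmp12 and Mmp23 differences rest on them, and because the second Mmp2 probe gave a D21 call that the first did not. Each is 60 bases long, given 5′ to 3′ along the transcript with its position in rn4, as the scanner files give it. That of Mmp12 spans 357 bases of the genome, so that it joins more than 1 exon. The brighter Mmp2 probe, at chr19:15246221-15246280, gave the 12 Mmp2 levels above.
Mmp12 (chr8:4259057-4259413, plus strand): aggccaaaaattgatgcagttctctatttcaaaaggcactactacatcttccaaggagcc
Mmp2 (chr19:15246805-15246864, minus strand): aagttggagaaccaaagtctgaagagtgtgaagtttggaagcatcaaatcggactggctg
Mmp23 (chr5:172487032-172487091, minus strand): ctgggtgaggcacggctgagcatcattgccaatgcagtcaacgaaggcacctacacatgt

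**Figure D3:**
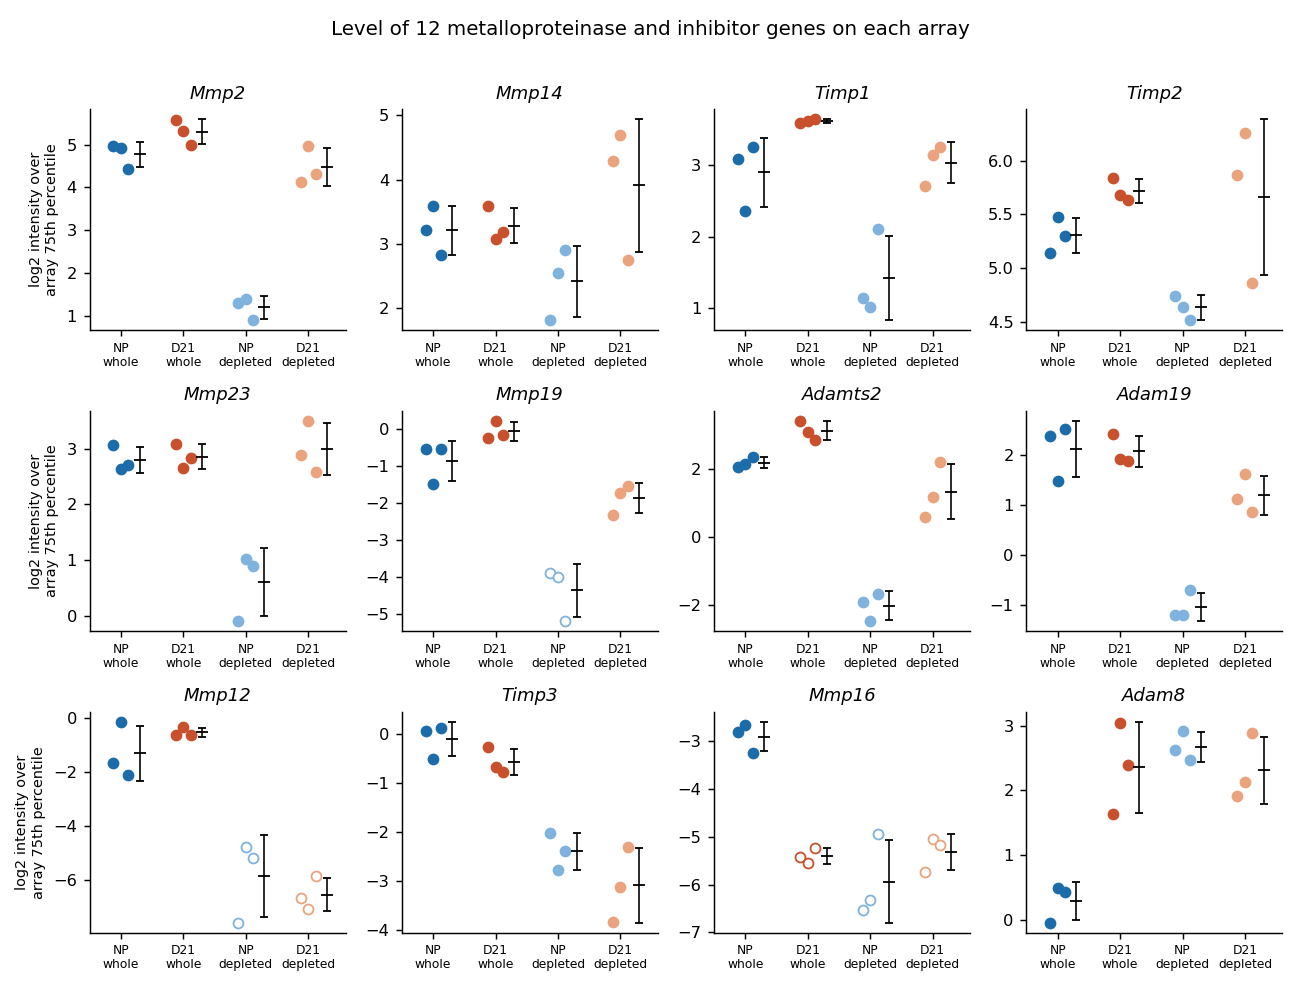
Log2 level of 12 genes on each array (points, 3 rats per group) with the mean and SD of each group (black bars). Open points mark groups in which not all 3 arrays were well above background. The NP depleted points lie lowest for Mmp2, Mmp23, Mmp19, Adamts2 and Adam19, both depleted groups lie low for Mmp12 and Timp3, NP whole cervix alone is high for Mmp16, and NP whole cervix alone is low for Adam8.

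Timp1, a secreted inhibitor of most Mmp enzymes, was lower in NP depleted cells than in NP whole cervix or D21 depleted cells. It stood at 3.10, 2.36 and 3.26 in NP whole and 3.60, 3.62 and 3.65 in D21 whole cervix. In depleted cells it was at 1.14, 1.02 and 2.10 in NP rats and 2.71, 3.15 and 3.25 in D21 rats. Every NP depleted array was below every other array. NP whole exceeded NP depleted cervix by 1.48 ± 0.33 (SE, adjusted p = 0.00541) and D21 exceeded NP depleted cells by 1.61 ± 0.33 (SE, adjusted p = 0.0181), while D21 minus NP whole cervix was 0.72 ± 0.33 (SE, adjusted p = 0.224), with no overlap and no call.

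Timp2, which takes part in the activation of Mmp2 as well as blocking it, moved less. Its levels were 5.14, 5.47 and 5.29 in NP whole, 5.84, 5.68 and 5.63 in D21 whole, 4.74, 4.64 and 4.51 in NP depleted and 5.86, 6.26 and 4.86 in D21 depleted cervix. D21 exceeded NP depleted cells by 1.03 ± 0.31 (SE, adjusted p = 0.0943), which just passed the unadjusted limits and was lost in 9 of the 12 fits that left out 1 rat.

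Timp3, the inhibitor that binds to the matrix and also blocks Adam17 and several Adamts enzymes, was lower in both depleted groups. It was at 0.07, -0.50 and 0.13 in NP whole and -0.27, -0.68 and -0.77 in D21 whole cervix. The depleted values were -2.02, -2.77 and -2.39 in NP and -3.83, -3.13 and -2.31 in D21 rats. No depleted array reached a whole array. Whole exceeded depleted cervix by 2.29 ± 0.37 (SE, adjusted p = 0.00077) in NP rats and by 2.52 ± 0.37 (SE, adjusted p = 0.00155) in D21 rats, and D21 and NP rats overlapped, with D21 minus NP at -0.47 ± 0.37 (SE, adjusted p = 0.48) in whole cervix and -0.70 ± 0.37 (SE, adjusted p = 0.294) in depleted cells, neither of them called. With normexp background Timp3 kept its call in NP rats and lost it in D21 rats. Timp4, well above background on 10 arrays, passed no limit. The probes of Timp1, which spans 1004 bases of the genome and so joins more than 1 exon, and Timp3 are shown because they separate an inhibitor that was low in 1 depleted group from one that was low in both.
Timp1 (chrX:12542700-12543703, minus strand): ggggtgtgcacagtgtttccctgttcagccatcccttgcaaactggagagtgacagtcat
Timp3 (chr7:19679721-19679780, minus strand): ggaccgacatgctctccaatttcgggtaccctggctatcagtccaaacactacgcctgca

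**Figure D4:**
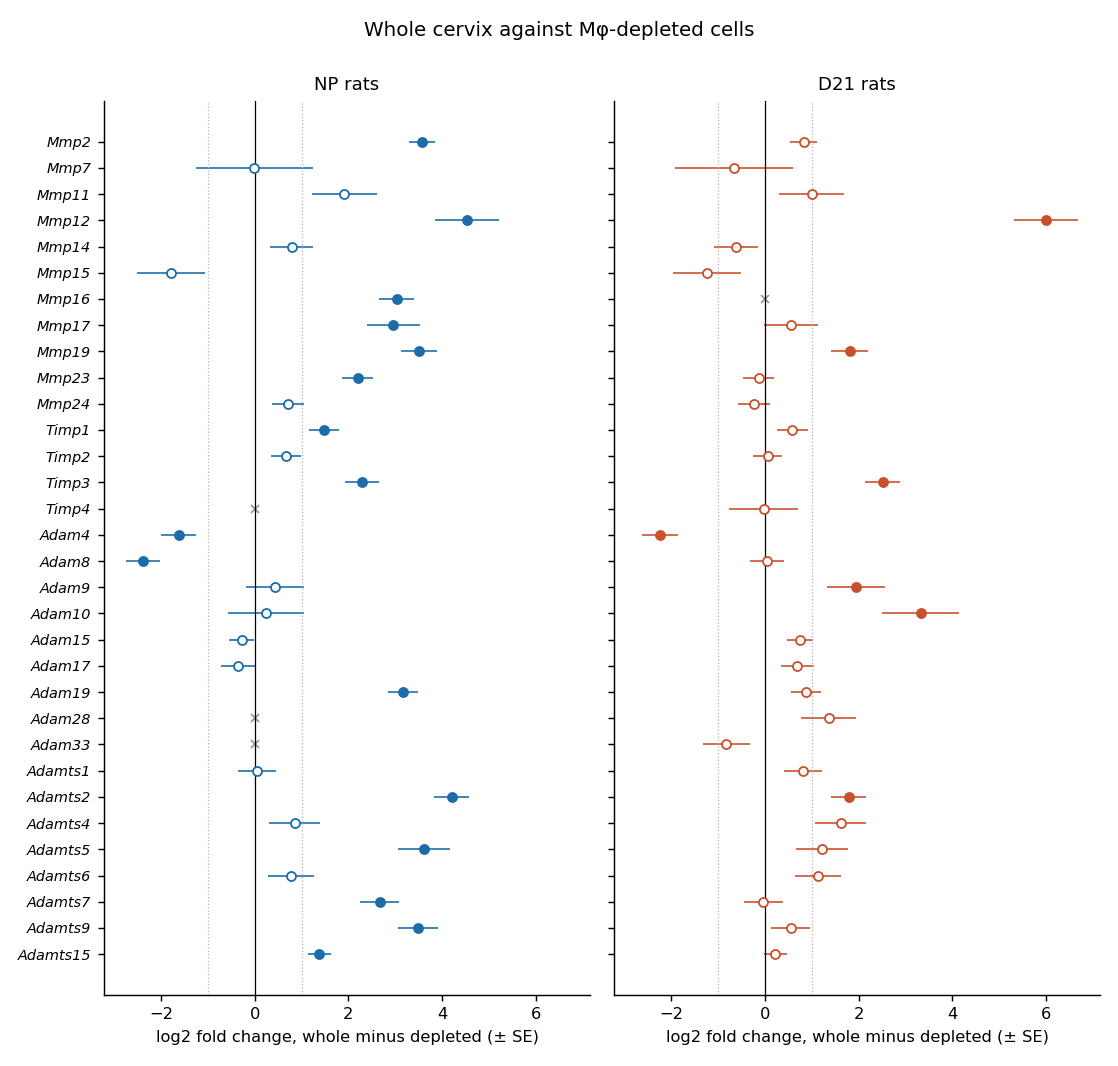
Log2 fold change of whole minus Mφ-depleted cervix in NP rats (left) and D21 rats (right) for the 32 tested genes, with SE from limma (3 rats per group). Filled points passed the limits, grey crosses mark genes not tested there, and dotted lines stand at 2-fold. Of the filled points, 14 lie to the right and 2 to the left in NP rats, and 6 and 1 in D21 rats. Open points lie on both sides.

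Of the 8 Adam genes with protease activity outside the germ line group, all of them tested, 3 were higher in D21 than in NP whole cervix (background 5.39%) and none was lower (background 3.09%). Epithelial markers moved in the same comparison, with 6 of 10 higher in D21 and none lower and a median of 1.41, and their part in the result was not tested. Adam15, which is found on leukocytes and endothelium, was at 0.81, 1.06 and 1.39 in NP whole and 2.47, 2.82 and 2.91 in D21 whole cervix, and at 1.76, 0.86 and 1.48 in NP and 1.89, 2.18 and 1.90 in D21 depleted cells. All D21 whole arrays were above all the others. The D21 minus NP difference in whole cervix was 1.65 ± 0.27 (SE, adjusted p = 0.00928), 3.14-fold. Adam28, a lymphocyte metalloproteinase, was at -4.57, -2.31 and -3.44 in NP whole cervix, where 2 arrays were well above background, and at -0.52, -0.99 and -0.55 in D21 whole cervix. Its depleted values were -3.47, -2.00 and -3.04 in NP and -2.19, -2.82 and -1.13 in D21 rats. D21 exceeded NP whole cervix by 2.75 ± 0.59 (SE, adjusted p = 0.0231), and D21 whole minus depleted, 1.36 ± 0.59 (SE, adjusted p = 0.111), was not called. Adam28 entered the first of these tests through D21 whole cervix only. It lost that call where every array had to be well above background.

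Adam8, a leukocyte metalloproteinase, was low in NP whole cervix. It was at -0.04, 0.49 and 0.42 in NP whole and 1.63, 3.04 and 2.39 in D21 whole cervix. In depleted cells it was at 2.62, 2.92 and 2.46 in NP rats and 1.91, 2.13 and 2.89 in D21 rats. The 3 NP whole arrays lay below the other 9. D21 exceeded NP whole cervix by 2.07 ± 0.37 (SE, adjusted p = 0.0114), NP whole minus NP depleted cervix was -2.38 ± 0.37 (SE, adjusted p = 0.000583), and D21 whole minus D21 depleted cervix was 0.05 ± 0.37 (SE, adjusted p = 0.94). Adam8 was thus higher in NP cells after Mφ depletion. Neutrophil markers stood at 1.34, 0.86 and 1.73 in NP whole and at -0.68, 2.76 and -0.17 in NP depleted cervix. Immediate-early genes (10 of 11) and epithelial markers (6 of 10) were lower in NP whole than in NP depleted cervix, with none higher in either list. The part of these lists in the result was not tested. The Adam8 probe, shown because it carries this pattern, spans 464 bases of the genome and so joins more than 1 exon.
Adam8 (chr1:199780547-199781010, minus strand): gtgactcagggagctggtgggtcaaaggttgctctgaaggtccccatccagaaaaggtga

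Adam10, the sheddase of Notch and cadherins, stood at -2.94, -2.67 and -2.69 in NP whole and -1.31, -1.28 and -1.32 in D21 whole cervix. Its depleted values were -2.91, -3.16 and -2.96 in NP and -4.89, -6.80 and -2.18 in D21 rats, with 2 of 3 arrays well above background in each. D21 whole arrays were above all others, and the 3 D21 depleted rats spread from the lowest Adam10 value of the 12 arrays, in rat 2, to just below the D21 whole range, in rat 4. D21 whole exceeded depleted cervix by 3.32 ± 0.82 (SE, adjusted p = 0.0186), which ran from 2.23 without D21 depleted rat 2 to 4.54 without rat 4 and was 0.88 within scan day 3, where only rat 4 was depleted. Only this dim probe saw Adam10, since the second Adam10 probe passed background on none. D21 minus NP whole cervix, 1.46 ± 0.82 (SE, adjusted p = 0.317), did not overlap and was not called. This SE draws on the spread of all 4 groups. The SD of Adam10 was 0.15 in NP whole, 0.02 in D21 whole and 2.32 in D21 depleted cervix. The methods' t-test, which uses only the groups compared, called Adam10 higher in D21 than in NP whole cervix, as did limma without D21 depleted rat 4. The same t-test did not call Adam10 between D21 whole and D21 depleted cervix. With normexp background that call of D21 whole against depleted cervix was lost as well.

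Adam9 and Adam17 followed the same rats. Adam9 was at 0.56, 0.76 and 0.88 in D21 whole and -1.77, -2.43 and 0.58 in D21 depleted cervix, a difference of 1.94 ± 0.62 (SE, adjusted p = 0.0449) with overlapping groups that was lost in 10 of the 12 fits without 1 rat and was 0.15 within scan day 3. Its NP values were -0.21, -0.48 and -0.06 in whole and -1.32, -0.69 and -0.01 in depleted cervix. Adam17, the sheddase of tumour necrosis factor and of ligands of the epidermal growth factor receptor, was at -0.01, 0.27 and 0.32 in NP whole and 0.54, 0.32 and 0.44 in D21 whole cervix and at 0.45, 0.80 and 0.39 in NP and -0.70, -0.79 and 0.71 in D21 depleted cells. No comparison of Adam17 passed the limits, and D21 depleted rats 1 and 2 had the lowest values of the 12 arrays and rat 4 one of the highest.

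Adam19, a sheddase of neuregulin, followed Mmp2. It was at 2.37, 1.47 and 2.51 in NP whole, 2.42, 1.91 and 1.88 in D21 whole, -1.22, -1.21 and -0.71 in NP depleted and 1.11, 1.62 and 0.84 in D21 depleted cervix. NP whole exceeded NP depleted cervix by 3.16 ± 0.33 (SE, adjusted p = 3.72e-05) and D21 exceeded NP depleted cells by 2.24 ± 0.32 (SE, adjusted p = 0.00295). A second, dim Adam19 probe was well above background on 2 NP depleted and 2 D21 depleted arrays and on no whole array. Its means were -4.65 in NP whole, -4.69 in D21 whole, -4.09 in NP depleted and -4.95 in D21 depleted cervix. The second probe was not tested and did not show these differences, which thus rest on 1 probe. Adam33 stood at -4.26, -1.83 and -3.04 in NP whole and -2.45, -2.82 and -2.77 in D21 whole cervix. It was at -5.02, -4.35 and -4.19 in NP depleted cells, with 2 arrays well above background, and at -1.44, -1.83 and -2.29 in D21 depleted cells, without overlap, a difference of 2.67 ± 0.50 (SE, adjusted p = 0.0122). Adam33 entered this test through D21 depleted cells only, and lost the call where every array had to be well above background.

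Adam4, a gene of the male germ line, was the only member lower in whole than in depleted cervix in both NP and D21 rats. It stood at -3.24, -3.36 and -3.89 in NP whole cervix, with 2 arrays well above background, and -4.42, -4.64 and -4.66 in D21 whole cervix, not well above background on any array. In depleted cells it stood at -1.89, -1.29 and -2.44 in NP and -2.02, -1.84 and -3.15 in D21 rats. D21 depleted was at least 3.79-fold higher than D21 whole cervix (adjusted p = 0.0034), and NP whole minus depleted cervix was -1.62 ± 0.38 (SE, adjusted p = 0.00734). With normexp background both Adam4 calls were lost.

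Among the Adamts genes the procollagen N-propeptidase Adamts2, which trims newly made fibrillar collagens, changed most between whole and depleted NP cervix. Its levels were 2.06, 2.16 and 2.35 in NP whole and 3.42, 3.08 and 2.86 in D21 whole cervix. They were -1.90, -2.48 and -1.67 in NP depleted and 0.60, 1.19 and 2.22 in D21 depleted cells. The groups did not overlap in any of the 4 comparisons. Whole exceeded depleted cervix by 4.21 ± 0.38 (SE, adjusted p = 1.47e-05) in NP rats, 18.4-fold, and by 1.79 ± 0.38 (SE, adjusted p = 0.00926) in D21 rats, 3.45-fold. D21 exceeded NP depleted cells by 3.35 ± 0.37 (SE, adjusted p = 0.000708), and D21 minus NP whole cervix was 0.93 ± 0.38 (SE, adjusted p = 0.172), not called. The probe is shown as the one with the widest difference in NP rats among the genes seen on all 12 arrays.
Adamts2 (chr10:36377019-36377078, plus strand): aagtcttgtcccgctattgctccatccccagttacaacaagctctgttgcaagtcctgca

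Of the 6 Adamts genes that cut versican and related proteoglycans, 5 were tested. Adamts1 was at 2.80, 1.11 and 2.34 in NP whole and 3.64, 3.49 and 3.47 in D21 whole cervix, with 1.67, 2.53 and 1.89 in NP and 2.27, 2.87 and 3.01 in D21 depleted cells. D21 whole arrays were above all others, and D21 exceeded NP whole cervix by 1.45 ± 0.40 (SE, adjusted p = 0.0596), a call lost without NP whole rat 9 or any 1 of the 3 D21 whole rats. Adamts4 was at -1.22, -3.03 and -1.72 in NP whole, -0.53, -1.46 and -1.98 in D21 whole, -2.62, -3.34 and -2.57 in NP depleted and -3.67, -3.07 and -2.08 in D21 depleted cervix and passed no limit, with D21 whole minus depleted at 1.61 ± 0.54 (SE, adjusted p = 0.0534). Adamts5 was at -2.41, -1.18 and -1.44 in NP whole and -2.26, -1.66 and -2.06 in D21 whole cervix, against -4.80, -5.82 and -5.24 in NP depleted cells, with 1 array well above background, and -4.18, -3.66 and -1.80 in D21 depleted cells. NP whole exceeded NP depleted cervix by 3.61 ± 0.55 (SE, adjusted p = 0.000538). D21 exceeded NP depleted cells by 2.08 ± 0.55 (SE, adjusted p = 0.0588), which was 1.37 without D21 depleted rat 4 and lost its call without NP depleted rat 6.

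Adamts9 and Adamts7 were lower in D21 than in NP whole cervix and higher in D21 than in NP depleted cells. Adamts9, a proteoglycan-cleaving enzyme, was at 1.14, 0.14 and 0.80 in NP whole, -0.09, -0.86 and -0.93 in D21 whole, -2.91, -3.58 and -1.89 in NP depleted and -1.24, -0.94 and -1.34 in D21 depleted cervix. Adamts7, which cuts cartilage oligomeric matrix protein, was at 0.63, 0.96 and 0.41, -0.30, -0.95 and -0.94, -1.05, -2.57 and -2.38 and -0.74, -0.12 and -1.22 in the same groups. By group means NP whole cervix was the highest for both, and NP depleted cells the lowest. NP whole exceeded NP depleted cervix by 3.48 ± 0.42 (SE, adjusted p = 0.000111) for Adamts9 and 2.67 ± 0.41 (SE, adjusted p = 0.000597) for Adamts7. D21 minus NP whole cervix was -1.32 ± 0.42 (SE, adjusted p = 0.0906) for Adamts9 and -1.40 ± 0.42 (SE, adjusted p = 0.0745) for Adamts7, calls that were lost in 8 and 4 of the 12 fits without 1 rat. D21 minus NP depleted cells was 1.62 ± 0.42 (SE, adjusted p = 0.053) for Adamts9, lost without NP depleted rat 6 or D21 depleted rat 2, and 1.31 ± 0.41 (SE, adjusted p = 0.107) for Adamts7, with overlapping groups and lost in 10 of the 12 fits. Adamts15 was higher in NP whole than in NP depleted cervix, by 1.38 ± 0.24 (SE, adjusted p = 0.00128), and in D21 than in NP depleted cells, by 1.76 ± 0.24 (SE, adjusted p = 0.00221), and Adamts6 passed no limit.

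**Figure D5:**
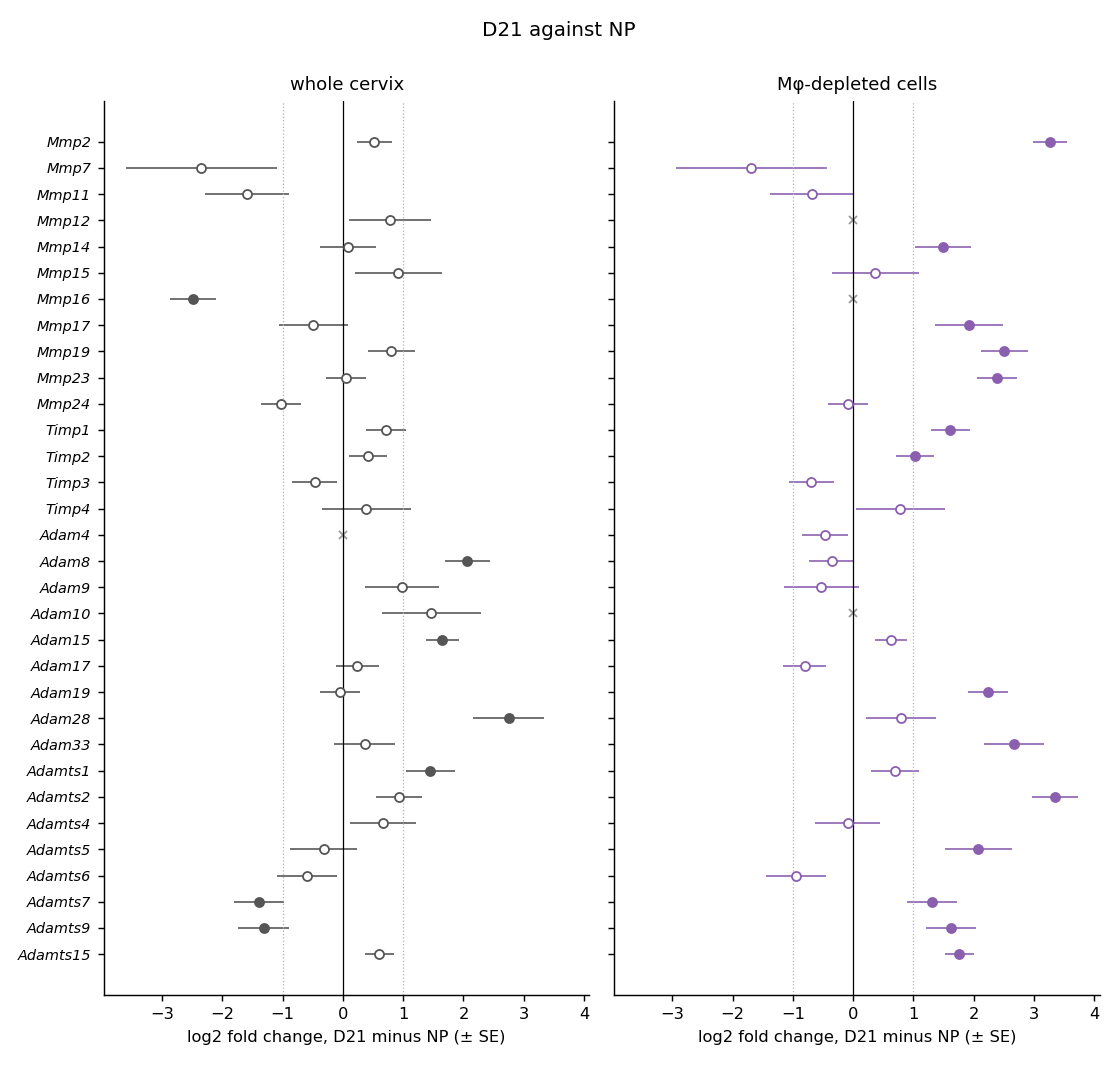
Log2 fold change of D21 minus NP rats in whole cervix (left) and in Mφ-depleted cells (right) for the 32 tested genes, with SE from limma (3 rats per group). Filled points passed the limits, grey crosses mark genes not tested there, and dotted lines stand at 2-fold. Of the filled points, 4 lie to the right and 3 to the left in whole cervix, and 14 lie to the right and none to the left in depleted cells. Open points lie on both sides.

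The change with depletion differed between D21 and NP rats for a group of these genes. In the test of the difference itself, (D21 whole minus D21 depleted) minus (NP whole minus NP depleted), 9 of 32 tested genes were negative past the limits, against 5.00% of all genes, and 1 was positive, against 2.44%. The median difference was -0.78 over the 32 and -0.05 over all genes. The 9 were Mmp2, Mmp16, Mmp23, Adam19, Adam33, Adamts2, Adamts7, Adamts9 and Adamts15, and the 1 was Adam8. Mmp16 passed the filter through NP whole cervix only. Its D21 whole minus D21 depleted part sets against each other groups with no array well above background, so that its value does not measure a change with depletion in D21 rats. Its call was lost with normexp background and where every array had to be well above background. Of the 10, all but Adam33 and Adamts15 had an adjusted p below 0.05 (7 negative, background 1.96%, and 1 positive, background 0.439%) and kept the unadjusted limits in each of the 12 fits without 1 rat. Without D21 depleted rat 4 the positive genes were 4. Timp3 at 0.22 ± 0.53 (SE, adjusted p = 0.847) and Mmp12 at 1.46 ± 0.98 (SE, adjusted p = 0.439) did not pass. Fibroblast markers differed between D21 and NP depleted cells in the same direction as most of these genes, with 7 of 9 tested markers higher in D21, and 6 of 10 negative in the test of the difference. Smooth muscle markers did so too, with 6 of 8 and 6 of 10. Their part in the result was not tested.

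Slides and scan days were spread unevenly over the groups. No slide held both D21 whole and D21 depleted arrays, and scan day 3 held 3 of the first and only rat 4 of the second. There all 7 genes called between these groups kept their sign and 4 kept a 2-fold difference, and with slide as a block 1 of the 7, Mmp12, was called. The same block kept 13 of the 16 calls in NP whole against depleted cervix, without Mmp17, Timp1 and Adam4, and 10 of 14 in D21 against NP depleted cells, without Mmp14, Mmp17, Adamts7 and Adamts9. It kept 3 of 7 in D21 against NP whole cervix, which were Adam8, Adam15 and Mmp16. In the test of the difference it kept 7 of 10, without Adam8, Adam33 and Adamts15. Between NP whole and NP depleted cervix, 16 of 16 called genes kept their sign within scan day 3 and within slide 3, and 15 and 14 kept a 2-fold difference. Between D21 and NP whole cervix all 7 did so within slide 4, which held 1 NP whole array. Between D21 and NP depleted cells 14 of 14 did so within slide 1 (1 array against 2), and 13 of 14 kept their sign within slide 3 (1 against 1), the exception being Mmp14.

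The other genes of the pathway are read against the shares called over all genes. In NP whole against depleted cervix these were 13.6% higher and 10.8% lower, in D21 whole against depleted cervix 10.0% and 7.72%, in D21 against NP depleted cells 5.44% and 2.06%, and in D21 against NP whole cervix 5.39% and 3.09%. Of 13 tested regulators of Mmp activity and activation, 5 were higher and 1 lower in NP whole than in NP depleted cervix, with a median of 1.29, among them the broad protease inhibitor A2m (5.08 ± 0.64, SE, adjusted p = 0.000155), the procollagen enhancer Pcolce (3.75 ± 0.43, SE, adjusted p = 7.61e-05) and Reck, a membrane inhibitor of Mmp2, Mmp9 and Mmp14 (2.79 ± 0.39, SE, adjusted p = 0.000318). For D21 rats the counts were 2 higher and 2 lower in whole cervix, close to the shares over all genes, with a median of 0.02. Here the plasminogen activator receptor Plaur was lower in whole cervix (-2.44 ± 0.61, SE, adjusted p = 0.0197), and Reck was higher (1.31 ± 0.40, SE, adjusted p = 0.0377). Between D21 and NP depleted cells 5 were higher and none lower, and between D21 and NP whole cervix 1 was lower and none higher. Of 7 tested partners of the Adam enzymes, none changed between D21 and NP whole cervix, 1 was lower in D21 whole than depleted cervix, and of the 5 tested in NP rats 1 was higher in whole cervix, Tspan15 (3.01 ± 0.74, SE, adjusted p = 0.00962), and 2 lower, Rhbdf2 (-1.96 ± 0.25, SE, adjusted p = 0.000183) and Rhbdf1 (-1.94 ± 0.30, SE, adjusted p = 0.000578). Among the Adamts-like proteins, 1 of 2 tested was lower in NP whole cervix, Papln (-1.75 ± 0.39, SE, adjusted p = 0.0054). Of 7 other extracellular metalloproteinases, 3 were higher in NP whole than in NP depleted cervix and 3 in D21 than in NP depleted cells, with Enpep, an aminopeptidase that cuts angiotensin, in both (3.97 ± 0.37, SE, adjusted p = 1.98e-05 for the first and 2.83 ± 0.37, SE, adjusted p = 0.00168 for the second).

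Of 9 tested matrix substrates, 7 were higher (background 13.6%) and 1 was lower (background 10.8%) in NP whole than in NP depleted cervix, with a median of 3.31. The proteoglycan Vcan (5.55 ± 0.73, SE, adjusted p = 0.000198) and the fibrillar collagen chains Col1a1 (4.33 ± 0.44, SE, adjusted p = 3.42e-05) and Col3a1 (4.07 ± 0.41, SE, adjusted p = 3.26e-05) led them. In D21 rats (backgrounds 10.0% and 7.72%) 2 were higher, Col4a2 (3.23 ± 0.67, SE, adjusted p = 0.00883) and Fn1 (1.66 ± 0.49, SE, adjusted p = 0.0355), and 1 lower, while none changed between D21 and NP whole cervix. Between D21 and NP depleted cells 6 were higher (background 5.44%) and none lower. Of the membrane proteins that Adam enzymes release, 7 of 14 tested were lower in NP whole than in NP depleted cervix (background 10.8%) and none was higher (background 13.6%). The receptor ligands Areg (-3.27 ± 0.57, SE, adjusted p = 0.00126) and Hbegf (-3.08 ± 0.45, SE, adjusted p = 0.00042) and the receptor Notch1 (-2.96 ± 0.41, SE, adjusted p = 0.000286) changed most. In D21 rats 6 of 16 were lower (background 7.72%) and 3 higher (background 10.0%) in whole cervix, with Hbegf lower (-3.50 ± 0.46, SE, adjusted p = 0.000733) and the ligand Btc higher (3.05 ± 0.88, SE, adjusted p = 0.0322), and Btc and Cdh1 were the 2 of 16 that were higher in D21 than in NP whole cervix (background 5.39%). Epithelial markers moved the same way as the shed proteins, with 6 of 10 lower in NP whole and 4 of 10 lower in D21 whole cervix, as did immediate-early genes, with 10 of 11 and 11 of 13 lower. Their part in the result was not tested.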

How the data were processed

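Expression in 12 rat cervix samples was measured by the authors on 1-colour Agilent Rat GE 4x44K arrays, scanned with Agilent Feature Extraction 9.5.3.1 (rn4 probe positions). The deposited scanner files hold processed intensity per spot, background-corrected by the scanner software. The deposited value table holds, per probe, the authors' ratio of intensity to the 75th percentile of the array (r with the intensity over that percentile on the log2 scale at least 0.996 on every array), and was used as an alternative. Array number limits the precision, since arrays give no read depth.

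Here unflagged spots of a probe were averaged, log2 of the array's 75th percentile was subtracted, and the brightest probe stood for a gene. The genes of interest kept their file names, and 57.1% of probes were named through RefSeq accessions. Groups came from the labels. limma 3.58.1 (R 4.3.3, lmFit and eBayes) was fitted to all 12 arrays with 1 mean per group, and tested on simulated data. Genes named with full values were 13 chosen by name plus the 5 called genes that changed most in either direction of a comparison. Mmp17 and Adam19, called but outside this rule, were also given in full. Partner and marker genes were given by counts with up to 3 examples per list. The values of 1 gene of these lists are not reported here. The members and lists were chosen with earlier results of these data known. The alternatives were the methods' t-test, normexp background (offset 50), quantile normalization, no or a stricter background filter, the mean of all probes, a block for slide or for scan day, the deposited table and leaving out each rat. RefSeq promoters (GRCr8) were searched for 1 motif of 7 letters, and no coordinates were moved between builds.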

Additional observations from a re-analysis of the deposited data

Results flagged for a closer look

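For 8 genes the change with depletion in D21 rats minus that in NP rats had an adjusted p below 0.05 in limma's test of that difference (3 rats in each of 4 groups). It was negative for Mmp2 at -2.75 ± 0.41 (SE, adjusted p = 0.00798), Mmp16 at -3.11 ± 0.55 (SE, adjusted p = 0.0158), Mmp23 at -2.33 ± 0.48 (SE, adjusted p = 0.031), Adam19 at -2.28 ± 0.46 (SE, adjusted p = 0.031), Adamts2 at -2.42 ± 0.53 (SE, adjusted p = 0.0418), Adamts7 at -2.70 ± 0.59 (SE, adjusted p = 0.041) and Adamts9 at -2.94 ± 0.60 (SE, adjusted p = 0.031). It was positive for Adam8 at 2.42 ± 0.53 (SE, adjusted p = 0.0402), a call that was lost with slide as a block. For Mmp16 the value was fitted with 3 groups that were not well above background on any array and is no bound, and its call was lost with normexp background.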

How the results depend on the processing

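No called difference of a named gene changed sign under any alternative run. Of the values of named genes under the alternatives, 2434 kept their sign and their side of the limits, 209 lost the call, 39 gained it and 57 of uncalled differences changed sign. With slide as a block the log2 values that changed sign were Mmp14 (0.34), Timp1 (-0.43), Adamts5 (-0.037), Adam8 (-0.44), Adamts7 (0.73), Mmp23 (0.027) and Mmp17 (-1.01) in D21 whole minus depleted, Adam10 (-1.14), Adamts1 (-0.033) and Adam9 (-0.91) in NP whole minus depleted, Adamts4 (0.16) in D21 minus NP depleted and Timp3 (-0.32) in the test of the difference. With scan day as a block they were Adam8 (-0.23), Adamts7 (0.34) and Adamts15 (-0.0060) in D21 whole minus depleted, Adam10 (-1.11) and Adam9 (-0.81) in NP whole minus depleted, Adamts4 (0.16) in D21 minus NP depleted and Timp3 (-0.089) in the test of the difference. With normexp they were Mmp23 (-0.023) in D21 minus NP whole, Adamts1 (-0.0098) in NP whole minus depleted, Timp3 (0.14), Adamts4 (0.46) and Adam4 (0.25) in D21 minus NP depleted and Mmp12 (-0.47), Timp3 (-0.55) and Adamts4 (-0.069) in the test of the difference. With quantile normalization they were Mmp23 (0.096) in D21 whole minus depleted, Adam10 (-0.034) in NP whole minus depleted and Adamts4 (0.014) in D21 minus NP depleted. Without 1 rat the log2 ranges that crossed 0 were Mmp14 (-0.11 to 0.27), Adam33 (-0.25 to 0.97), Mmp23 (-0.062 to 0.19) and Adam19 (-0.37 to 0.15) in D21 minus NP whole, Timp2 (-0.34 to 0.36), Adam8 (-0.30 to 0.41), Adamts7 (-0.30 to 0.25) and Mmp23 (-0.34 to 0.12) in D21 whole minus depleted, Adamts1 (-0.30 to 0.54) in NP whole minus depleted, Adamts4 (-0.52 to 0.27) and Adam9 (-1.42 to 0.081) in D21 minus NP depleted and Timp3 (-0.15 to 0.61) in the test of the difference. No paired analysis was possible because each array came from its own rat. The rat numbers that the NP depleted and D21 whole groups share stand for different rats. In D21 against NP whole cervix (4 higher, 3 lower) the methods' t-test gave 2 higher, its Benjamini-Hochberg form 0 and 0, limma's adjusted p 1 lower, normexp 1 lower and slide as a block 2 and 1. In D21 whole against depleted cervix (6 and 1) they gave 2 and 0 for the methods' t-test, 0 and 0 for its Benjamini-Hochberg form, 3 and 0 for normexp, 1 and 0 for slide as a block, and 0 lower where every array had to be well above background. In NP whole against depleted cervix (14 and 2) they gave 8 and 1 for the methods' t-test, 4 and 1 for its Benjamini-Hochberg form, and 1 lower for normexp, slide or scan day as a block and the stricter filter. In D21 against NP depleted cells (14 and 0) they gave 6 higher for the methods' t-test, 0 for its Benjamini-Hochberg form and 8 for limma's adjusted p, and 1 lower without a background filter. In the test of the difference (1 higher, 9 lower) quantile normalization gave 2 higher and slide as a block 0. The causes were not tested.

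Leaving out 1 rat gave 3 to 5 higher and 1 to 4 lower in D21 against NP whole cervix, 5 to 10 and 1 to 3 in D21 whole against depleted cervix, 14 to 15 and 2 to 3 in NP whole against depleted cervix, 8 to 13 and 0 to 4 in D21 against NP depleted cells, and 1 to 4 and 7 to 10 in the test of the difference. The counts that moved most were without D21 depleted rat 4 (10 and 3 in D21 whole against depleted cervix, 4 lower in D21 against NP depleted cells, 4 higher in the test of the difference) and without NP depleted rat 6 (8 higher in D21 against NP depleted cells). Averaging a gene's probes lost Adam10 in D21 whole against depleted cervix, Adam19 and Adamts15 in the others where they were called, and Mmp17 in D21 against NP depleted cells, and added Mmp2 in D21 whole against depleted cervix. Bounds were given only where a group had no array well above background. Other groups had 1 or 2 such arrays, among them NP depleted cells for Mmp12, Adamts5, Mmp19 and Adam33, NP whole cervix for Adam28 and D21 depleted cells for Adam10. In tests against those groups these genes passed the filter through the other group only. Differences with those groups are no bounds. They use values not rated well above background as measured, so that their sizes are uncertain. The 3 rats per group also limit what could be called.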

Other observations

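Some genes that were not tested had a few arrays far from the rest. Adamts8, a proteoglycan-cleaving enzyme, was well above background on 2 NP whole arrays, at -2.25 and -0.90, while NP whole rat 9 was at -6.26 and the other 9 arrays lay between -7.62 and -4.89. Adam18, a gene of the male germ line, was at -0.87 in NP depleted rat 7 and between -7.62 and -5.44 on the other 11 arrays. Adam4l1 was well above background on 2 NP depleted arrays and on no other. Mmp3, stromelysin 1, was well above background on 1 array of each group. Adamts3, a procollagen propeptidase, was well above background on 6 arrays, with no group complete.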
